A study of Xenopus laevis with 8 samples.

Results

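Ectoderm explants that express Pinhead were set against explants of real marginal zone, to ask how near the one tissue comes to the other, gene by gene. The comparison takes 4 of the 8 RNA-seq samples of the series, all of Xenopus laevis gastrulae. Flag-Pinhead ectoderm is 2 samples of ectodermal explants given 1.5 ng of RNA for Pinhead with a Flag epitope tag, labelled stage 11. Control marginal zone is 2 samples of explants with no treatment, labelled as mesoderm and as stage 10.5, although the text of the series places them at stage 11. A further group, control ectoderm, is 2 samples of ectodermal explants with no treatment at stage 11. It gives the level of ectoderm without the RNA at the same stage label, not a level at an earlier time. All members of each group were taken from the titles of the samples. Tissue, stage label, RNA injection and the arm of the study (gain or loss of Pinhead, per the text of the series) all differ between Flag-Pinhead ectoderm and control marginal zone, and their parts cannot be told apart. The labels do not say whether replicates are of separate clutches, and p-values then cover only the spread between the sequenced samples, part of which may be technical.

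Pinhead is a secreted protein of the early embryo. The marginal zone is the equatorial belt of the blastula and gastrula. There, Nodal ligands made by vegetal cells induce mesoderm through Smad2 and the T-box and Mix genes, and FGF and Wnt signals maintain it and give it posterior character. Ectoderm of the animal pole forms epidermis when left alone, but it can answer the same signals, which is why it has long served as a test tissue for inducers. X. laevis is allotetraploid, and most of its genes are kept as L and S copies (for the long and the short chromosome), marked by the letter after the symbol.

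Total counts per sample lay between 12551618 and 19719311. Levels are normalised CPM (each library's counts scaled to the same total), from TMM-scaled library sizes without the pnhd genes, and differences are log2 of Flag-Pinhead ectoderm over control marginal zone. A gene was called where edgeR's quasi-likelihood test gave an adjusted p under 0.05 over all 21079 genes tested. CPM are not corrected for length, so they compare a gene between samples and not one gene with another. The Flag-Pinhead libraries differed from each other more than the control pairs did, with a mean chi-square per gene of 4.01, against 2.05 in control marginal zone and 2.27 in control ectoderm. The fit gives each gene a common spread over all groups. Standard errors and p-values of Flag-Pinhead differences may therefore be too small.

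The injected RNA was plain in the counts. pnhd.L stood at 34520 and 64610 CPM in Flag-Pinhead ectoderm, at 90.9 and 86.6 CPM in control marginal zone and at 16.0 and 18.3 CPM in control ectoderm. Counts of pnhd took 3.18% and 5.99% of the Flag-Pinhead libraries. pnhd.S, the other copy, had 15.6 and 11.5 CPM in Flag-Pinhead ectoderm, 77.5 and 81.2 CPM in control marginal zone and 1.06 and 1.43 CPM in control ectoderm. It was therefore above control ectoderm in both libraries and still at 17% of its marginal zone level (log2 difference -2.55, SE 0.11, edgeR adjusted p = 6.02e-15). Reads of the injected RNA may have been counted on pnhd.S, since the copies are alike, and this was not tested.

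Markers of the tissues were summed to check the labels. The mesoderm list held 814 and 819 CPM in Flag-Pinhead ectoderm, 2432 and 2338 CPM in control marginal zone and 44.6 and 46.5 CPM in control ectoderm. The endoderm list held 49.3 and 51.0 CPM in Flag-Pinhead ectoderm, 872 and 860 CPM in control marginal zone and 19.9 and 18.4 CPM in control ectoderm. The marginal zone explants, labelled as mesoderm, thus also held endoderm RNA. The ectoderm list, at 1380 and 1254 CPM in Flag-Pinhead ectoderm, had 1818 and 1767 CPM in control marginal zone and 2559 and 2589 CPM in control ectoderm. In such sums abundant members weigh most. Of the 14 tested genes of this list 8 were above the marginal zone level and 6 below, with a median of 131.2% of that level. RNA of its members was thus not confined to ectodermal explants, and which cells of the marginal zone explants held it was not tested. In explants of mixed cells, fewer cells of a type and less RNA per cell cannot be told apart.

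By edgeR, Flag-Pinhead ectoderm and control marginal zone differed in most of the genes tested. Among these, 6748 were higher in Flag-Pinhead ectoderm (32.0%) and 6149 were lower (29.2%). With a difference of at least 2-fold besides, 2745 were higher (13.0%) and 1949 were lower (9.25%). DESeq2 called fewer genes without a fold limit, 10270, of which 5377 were higher and 4893 lower. A gene was placed within 2-fold where it was not called and the 95% interval of its difference lay inside -1 to 1 on the log2 scale, which held for 5945 genes (28.2%). The remaining 2237 genes were undecided (10.6%). These shares of all genes are the background for the counts of every list against control marginal zone. The median difference over all genes was 0.01.

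Most genes that were higher in control marginal zone than in control ectoderm did not reach that level in Flag-Pinhead ectoderm. Marginal zone genes are the 799 genes (3.79% of those tested) at least 4-fold higher in control marginal zone than in control ectoderm with an adjusted p under 0.05. The controls differ in stage label and arm of the study as well as in tissue, and these cannot be told apart. Flag-Pinhead ectoderm shares stage label and arm with control ectoderm. Of them 647 (81.0%) fell short in Flag-Pinhead ectoderm, 624 of these by at least 2-fold. A further 50 (6.26%) exceeded the marginal zone level, 31 (3.88%) came within 2-fold of it and 71 (8.89%) were undecided. Their median level was 17% of that in control marginal zone, and 288 lay under 10%. Against control ectoderm, 302 of the 799 were higher in Flag-Pinhead ectoderm and 15 were lower. Over all genes tested, 3332 (15.8%) were higher in Flag-Pinhead ectoderm than in control ectoderm and 2594 (12.3%) were lower, which is the background for every count against control ectoderm given here. The genes were chosen as high in the control marginal zone libraries and low in the control ectoderm libraries, and both comparisons use those libraries again. The counts therefore describe and do not test, and both the share that fell short and the share above control ectoderm can be too high for that reason. With genes chosen on a single marginal zone library and compared with the other, their median log2 difference was -2.55 and -2.39, against -2.52 with both libraries. Shares called in such fits can also drop because a replicate is missing, so they cannot give the size of that bias. The count that exceeded was 33 without control marginal zone replicate 2 and 28 with DESeq2. By DESeq2, 553 of 805 marginal zone genes fell short (68.7%). The plot of levels shows the marginal zone genes spread below the line of equal levels, with a smaller group on or above it.

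**Figure D1:**
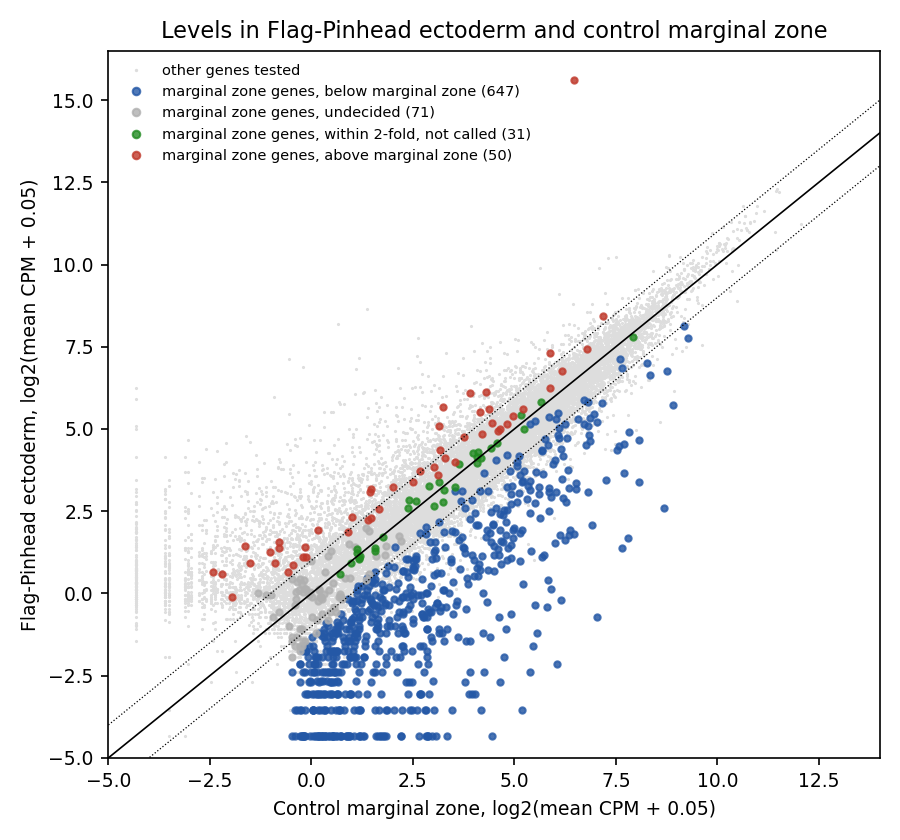
Mean level of each gene in Flag-Pinhead ectoderm (vertical) against control marginal zone (horizontal), as log2 of normalised CPM plus 0.05, n = 2 libraries each. Grey points are the other genes tested and coloured points the 799 marginal zone genes by outcome; the solid line marks equal levels and the dotted lines 2-fold differences. Of the marginal zone genes 647 lie below their marginal zone level, and the point at the top is pnhd.L, which includes injected RNA.

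The steeper a gene's difference between the controls, the smaller was the share of its marginal zone level, although its excess over control ectoderm was larger. Among 1016 genes that were 2 to 4-fold higher in control marginal zone than in control ectoderm, the median level was 44.1% of that in marginal zone. It was 29.5% for the 314 genes of 4 to 8-fold, 17.5% for the 158 genes of 8 to 16-fold and 10.2% for the 149 genes of 16 to 64-fold. For the 178 genes of 64-fold or more it was 2.26%, and 97.2% of these fell short. Over control ectoderm the median log2 difference of Flag-Pinhead ectoderm rose across the same classes. It was 0.14, 0.58, 0.96, 1.71 and 2.55, from the least to the most steep. A gene with a steep difference has more room to fall short and more room to exceed control ectoderm. The measures share the control libraries, so these shares and medians are a description.

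**Figure D2:**
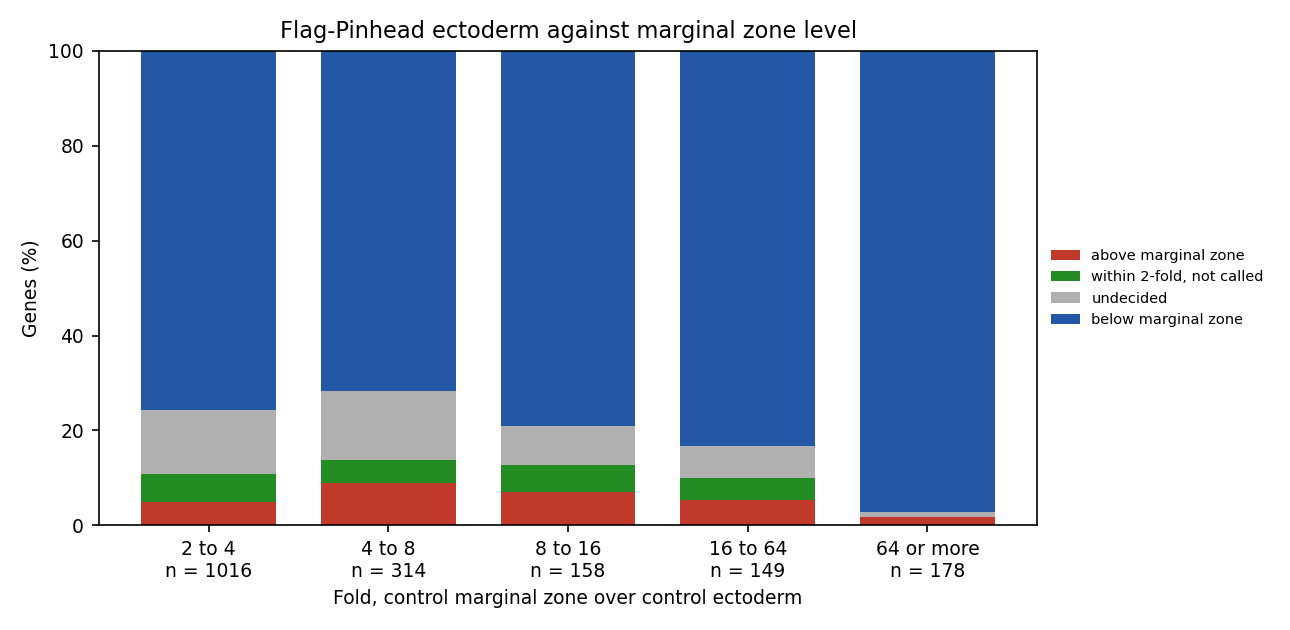
Share of genes in each outcome (vertical, percent) by how many fold higher control marginal zone was than control ectoderm (horizontal), with the number of genes under each bar. The share below the marginal zone level is 75.8% in the lowest class and 97.2% in the highest.

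Nodal ligands, which start mesoderm and endoderm formation, were nearly absent from Flag-Pinhead ectoderm. Of 14 tested members of the Nodal and TGF-beta list 12 were below the marginal zone level, 1 was above it and 1 was undecided, with a median of 25.3% of that level. nodal1.L had 0 and 0.14 CPM in Flag-Pinhead ectoderm, 14.7 and 14.8 CPM in control marginal zone and no count in control ectoderm. That is 2 counts against 418, and the ratio of control marginal zone over Flag-Pinhead ectoderm was 210.0 (exact 95% counting interval 57.7 to 1740). lefty.L, a feedback inhibitor of Nodal, had 2.58 and 3.54 CPM in Flag-Pinhead ectoderm, 80.4 and 72.4 CPM in control marginal zone and 0.51 and 1.08 CPM in control ectoderm. Its groups did not overlap, and its difference was -4.64 (SE 0.15, edgeR adjusted p = 2.51e-17). gdf3.S, a TGF-beta ligand that works with Nodal, came nearer, with 50.2 and 36.8 CPM in Flag-Pinhead ectoderm, 129 and 121 CPM in control marginal zone and 1.06 and 1.08 CPM in control ectoderm. The Nodal cofactors foxh1.L, at 74.3% of the marginal zone level, and tdgf1.3.L, at 86.5%, were also below it but stood high in control ectoderm too. inhbb.S, an activin subunit, was the member above, with 1.68 and 2.2 CPM in Flag-Pinhead ectoderm against 0.23 and 0.32 CPM in control marginal zone.

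The Mix and Bix homeobox genes, direct Nodal targets of mesendoderm, showed the lowest list median. All 10 tested members were below the marginal zone level, by a median of -5.20 and to a median of 2.72% of that level, yet all 10 were called above control ectoderm (15.8% of all genes). mixer.S had 9.28 and 11.4 CPM in Flag-Pinhead ectoderm, 269 and 266 CPM in control marginal zone and 0.10 and 0.23 CPM in control ectoderm. mix1.L had 2.65 and 2.48 CPM in Flag-Pinhead ectoderm, 211 and 191 CPM in control marginal zone and 0.10 and 0.40 CPM in control ectoderm. Both therefore stood above the level of control ectoderm without nearing that of marginal zone. Their differences from control marginal zone were -4.69 (SE 0.09, edgeR adjusted p = 2.44e-21) for mixer.S and -6.28 (SE 0.12, edgeR adjusted p = 3.31e-21) for mix1.L. sebox.L, at 11.7% of the marginal zone level, was the member that came nearest.

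The T-box genes split by how much of the level was reached. Of 12 tested members 11 were below and 1 was undecided, with a median of 18.3%. t.L, which encodes Brachyury, the pan-mesodermal factor, had 144 and 116 CPM in Flag-Pinhead ectoderm, 323 and 290 CPM in control marginal zone and 2.32 and 2.45 CPM in control ectoderm. It reached 42.4% of the marginal zone level (log2 difference -1.24, SE 0.07, edgeR adjusted p = 1.94e-12). vegt.L, a T-box factor of mesoderm and endoderm, had 212 and 228 CPM in Flag-Pinhead ectoderm, 612 and 627 CPM in control marginal zone and 13.7 and 12.8 CPM in control ectoderm, and vegt.S reached 48.2%. eomes.S, the T-box factor tied to Nodal, had 9.91 and 15.2 CPM in Flag-Pinhead ectoderm, 211 and 204 CPM in control marginal zone and 1.01 and 1.71 CPM in control ectoderm. It thus stood at 6.07%, and eomes.L at 11.0%, much lower shares than t.L or vegt.L. The other copy of t, t.S, stood at 9.71%, between the eomes copies, so the split did not hold for both copies of t.

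**Figure D3:**
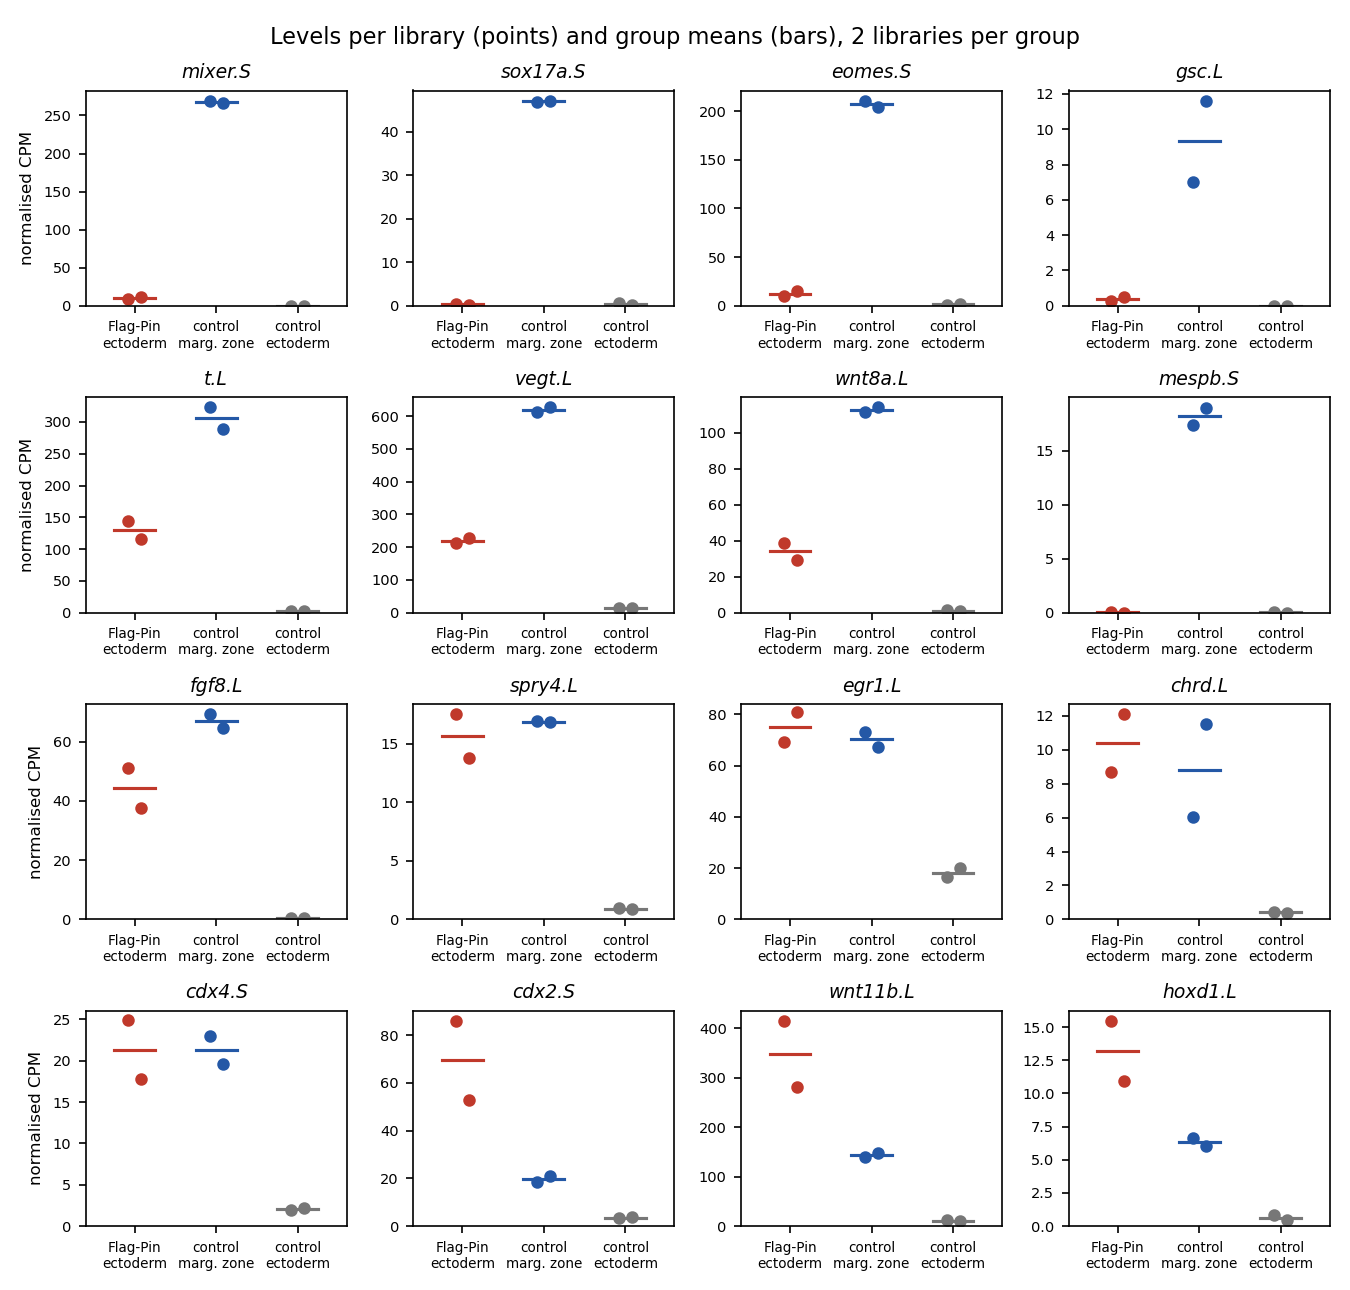
Level of 16 genes in each library (points, normalised CPM on a linear axis from 0) and the group mean (bar), with Flag-Pinhead ectoderm left, control marginal zone in the middle and control ectoderm right. The upper panels hold genes that fell short, such as mixer.S and eomes.S. The lower panels hold fgf8.L, which also fell short, and genes that came within 2-fold, such as egr1.L, or exceeded, such as wnt11b.L.

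Targets and feedback inhibitors of FGF signalling formed the list that, of the 26 examined, had the largest share within 2-fold of the marginal zone level. Of 38 tested members 16 lay within 2-fold, 12 were above, 8 were below and 2 were undecided, with a median of 110.9%. Against control ectoderm 33 of the 38 were called above and none below, beside 15.8% above and 12.3% below over all genes. spry4.L, a Sprouty inhibitor of receptor tyrosine kinase signalling, had 17.6 and 13.8 CPM in Flag-Pinhead ectoderm, 16.9 and 16.9 CPM in control marginal zone and 0.96 and 0.85 CPM in control ectoderm. The Flag-Pinhead libraries lay on either side of the marginal zone ones, and the 95% interval of the difference ran from -0.40 to 0.19. egr1.L, an immediate early gene of the MAP kinase pathway, had 69.3 and 80.8 CPM in Flag-Pinhead ectoderm, 73.0 and 67.4 CPM in control marginal zone and 16.6 and 19.8 CPM in control ectoderm, with an interval from -0.07 to 0.27. dusp5.L, a phosphatase that acts on ERK, had 146 and 120 CPM in Flag-Pinhead ectoderm, 122 and 125 CPM in control marginal zone and 54.1 and 55.1 CPM in control ectoderm. Single libraries weigh on these small differences: edgeR called egr1.L above at 0.20 without Flag-Pinhead ectoderm replicate 1 (adjusted p = 0.043), and dusp5.L above at 0.24 without Flag-Pinhead ectoderm replicate 2 (adjusted p = 0.00135).

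Members of the same list went past or stayed under that level too. rasl11b.L, a small GTPase of the Ras family, had 149 and 168 CPM in Flag-Pinhead ectoderm, 58.5 and 59.3 CPM in control marginal zone and 5.86 and 7.75 CPM in control ectoderm (log2 difference 1.43, SE 0.08, edgeR adjusted p = 2.16e-13). Its groups did not overlap. spry1.L was called slightly below, at 82.5% of the marginal zone level (edgeR adjusted p = 0.031), and dusp6.L at 77.8% (0.010). Both calls ended with DESeq2 (adjusted p = 0.132 for spry1.L and 0.068 for dusp6.L), without Flag-Pinhead ectoderm replicate 2 (edgeR adjusted p = 0.387 and 0.125) and without control marginal zone replicate 1 (0.249 and 0.113). flrt3.L, a membrane protein that promotes FGF signalling and cell rearrangement, was the member furthest below, with 24.4 and 22.0 CPM in Flag-Pinhead ectoderm, 216 and 199 CPM in control marginal zone and 0.15 and 0.11 CPM in control ectoderm. The FGF ligands themselves came near without all meeting it. fgf8.L had 51.1 and 37.7 CPM in Flag-Pinhead ectoderm, 69.3 and 64.5 CPM in control marginal zone and 0.56 and 0.34 CPM in control ectoderm, a difference of -0.59 (SE 0.10, edgeR adjusted p = 3.61e-05). fgf20.S, with 11.1 and 8.15 CPM in Flag-Pinhead ectoderm against 6.72 and 7.98 CPM in control marginal zone, lay within 2-fold, but was called above without Flag-Pinhead ectoderm replicate 2 (edgeR adjusted p = 0.016). Of the 9 tested ligand genes 4 were below, 2 within, 1 above and 2 undecided. Among 9 receptor genes 4 were above, all of them copies of fgfr1 and fgfr2, and 2 were below, the copies of fgfr4.

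The posterior genes that could be tested mostly exceeded the marginal zone level. Of 33 Hox and caudal genes, copies counted singly, 21 had too few counts to be tested. The 12 tested stand for 6 of the 21 listed symbols. Among these 12 genes 8 were above, 3 within and 1 below, with a median difference of 0.97. cdx2.S, a caudal factor of the posterior axis, had 86.1 and 52.9 CPM in Flag-Pinhead ectoderm, 18.5 and 21.1 CPM in control marginal zone and 3.33 and 3.76 CPM in control ectoderm. Its groups did not overlap, and its difference was 1.81 (SE 0.15, edgeR adjusted p = 5.80e-10). hoxd1.L, a Hox gene of early gastrula mesoderm and neural tissue, had 15.5 and 11.0 CPM in Flag-Pinhead ectoderm, 6.65 and 6.03 CPM in control marginal zone and 0.81 and 0.46 CPM in control ectoderm (1.07, SE 0.19, edgeR adjusted p = 5.77e-05). cdx4.S had 24.9 and 17.8 CPM in Flag-Pinhead ectoderm and 23.0 and 19.6 CPM in control marginal zone, so its groups overlapped, while cdx4.L was at 234% of the marginal zone level. evx1.S was the member below, at 14.3%.

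Of 29 Wnt ligand genes 23 had too few counts to be tested. Of the 6 tested, 3 were above the marginal zone level, 2 were below, both of them copies of wnt8a, and 1 was undecided. wnt11b.L, a ligand of convergent extension and of the gastrula margin, had 416 and 282 CPM in Flag-Pinhead ectoderm, 140 and 149 CPM in control marginal zone and 11.4 and 10.2 CPM in control ectoderm. It exceeded the marginal zone level in both libraries (log2 difference 1.27, SE 0.10, edgeR adjusted p = 3.97e-10). wnt8a.L, the ligand of ventral and lateral mesoderm, had 38.8 and 29.3 CPM in Flag-Pinhead ectoderm, 111 and 114 CPM in control marginal zone and 1.16 and 1.08 CPM in control ectoderm. It reached 30.2%, and wnt8a.S 31.5%. Of 29 tested Wnt/beta-catenin targets 15 were above, 6 below, 6 within and 2 undecided. Among them sp5l.S, a Sp1-family factor, had 227 and 215 CPM in Flag-Pinhead ectoderm, 244 and 241 CPM in control marginal zone and 53.3 and 62.7 CPM in control ectoderm. It lay within 2-fold, with a 95% interval from -0.26 to -0.01 that leaves it slightly under that level, and edgeR called it below under 6 alternatives, with adjusted p between 0.00191 and 0.0493. These were scaling by library totals, DESeq2's size factors, all 8 libraries, only the 4 compared, no filter on low counts, and leaving out Flag-Pinhead ectoderm replicate 1. cyp26a1.L, which breaks down retinoic acid, was at 19.6% of the marginal zone level and close to its level in control ectoderm. Several targets above, such as axin2.S and notum.L, were not called apart from control ectoderm (edgeR adjusted p = 0.076 and 0.465).

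Dorsal organizer genes fell short with a few exceptions. Of 28 tested members 22 were below, 2 above, 2 within and 2 undecided, with a median of 16.7%. gsc.L, the homeobox gene of the organizer, had 0.28 and 0.50 CPM in Flag-Pinhead ectoderm, 7.03 and 11.6 CPM in control marginal zone and no count in control ectoderm. frzb.S, a secreted Wnt inhibitor, had 1.12 and 0.99 CPM in Flag-Pinhead ectoderm, 61.8 and 57.9 CPM in control marginal zone and 0 and 0.06 CPM in control ectoderm (-5.82, SE 0.17, edgeR adjusted p = 5.67e-18). chrd.L, which encodes the BMP antagonist Chordin, was unlike them. It had 8.72 and 12.1 CPM in Flag-Pinhead ectoderm, 6.03 and 11.5 CPM in control marginal zone and 0.46 and 0.40 CPM in control ectoderm. Its groups overlapped, and the 95% interval of the difference ran from -0.24 to 0.69. Without control marginal zone replicate 2, the one with more chrd.L, edgeR called it above (adjusted p = 0.017). Other entries with a chrd symbol, chrd.1.L and chrd.2.L, had fewer counts in Flag-Pinhead ectoderm than in control marginal zone. Over both libraries of a group, chrd.1.L had 32 counts in Flag-Pinhead ectoderm, 77 in control marginal zone and 1 in control ectoderm. For chrd.2.L the counts were 34, 126 and 3, so chrd.L does not speak for every such entry. not.S, a notochord homeobox gene, reached 55.6% and not.L 33.5%.

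The ventral mesoderm and BMP list leaned the same way, with 36 of 47 tested members below, 3 above, 5 within and 3 undecided, and a median of 46.7%. Here several members stood below control ectoderm as well. szl.L, which encodes Sizzled, a feedback inhibitor within the BMP pathway, had 1.88 and 2.06 CPM in Flag-Pinhead ectoderm, 47.4 and 41.8 CPM in control marginal zone and 14.2 and 11.0 CPM in control ectoderm. Its level was the lowest in Flag-Pinhead ectoderm, with a difference of -4.49 from control marginal zone (SE 0.17, edgeR adjusted p = 5.01e-16) and of -2.68 from control ectoderm (edgeR adjusted p = 1.45e-10). bambi.L, a BMP pseudoreceptor, had 102 and 68.7 CPM in Flag-Pinhead ectoderm, 242 and 212 CPM in control marginal zone and 167 and 165 CPM in control ectoderm. ventx2.1.L, a homeobox target of BMP, had 70.5 and 62.4 CPM in Flag-Pinhead ectoderm, 176 and 169 CPM in control marginal zone and 66.0 and 72.7 CPM in control ectoderm. It overlapped control ectoderm. The ligand bmp4.L was above the marginal zone level, with 120 and 120 CPM in Flag-Pinhead ectoderm, 76.4 and 74.1 CPM in control marginal zone and 110 and 117 CPM in control ectoderm. Of the whole list 11 members were called above control ectoderm and 19 below it, beside 15.8% and 12.3% of all genes.

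Paraxial mesoderm genes ranged from almost no count to the full level. Of 39 tested members 26 were below, 3 above, 3 within and 7 undecided, with a median of 45.8%. mespb.S, a bHLH factor of segmenting mesoderm, had 0.07 and 0 CPM in Flag-Pinhead ectoderm, 17.4 and 19.0 CPM in control marginal zone and 0.05 and 0 CPM in control ectoderm. That was 1 count against 518, a ratio of control marginal zone over Flag-Pinhead ectoderm of 520.0 (exact 95% counting interval 92.8 to 20600). pcdh8.2.S, a paraxial protocadherin of gastrulation movements, had 0.14 and 0.21 CPM in Flag-Pinhead ectoderm, 61.3 and 70.6 CPM in control marginal zone and 0.25 and 0.06 CPM in control ectoderm. Flag-Pinhead ectoderm overlapped control ectoderm in both mespb.S and pcdh8.2.S. The L and S copies of pcdh8.2 together had 70 and 54 counts in Flag-Pinhead ectoderm, only 2.86% and 5.56% of them from S. In control ectoderm they had 9 and 10 counts. pcdh8.2.L stood at 3.47% of its marginal zone level. Of the whole paraxial list 23 members were called above control ectoderm and 2 below, beside 15.8% and 12.3% of all genes. dll1.S, a Notch ligand, was between the controls, with 62.0 and 51.6 CPM in Flag-Pinhead ectoderm, 111 and 112 CPM in control marginal zone and 6.16 and 8.04 CPM in control ectoderm. hes7.2.S, a bHLH repressor of the Notch pathway, had 18.8 and 15.9 CPM in Flag-Pinhead ectoderm, 15.8 and 20.4 CPM in control marginal zone and 1.01 and 0.97 CPM in control ectoderm. Its libraries in Flag-Pinhead ectoderm and control marginal zone overlapped. The other copy, hes7.2.L, was below, at 43.8% of its marginal zone level. The muscle gene myf5.L, at 1.40 and 2.48 CPM in Flag-Pinhead ectoderm and 0.77 and 1.1 CPM in control marginal zone, was undecided (edgeR adjusted p = 0.063), and called above without Flag-Pinhead ectoderm replicate 1 (0.032). ripply3.S, a repressor of T-box activity, was far above, with 4.26 and 4.04 CPM in Flag-Pinhead ectoderm, 0.08 and 0.13 CPM in control marginal zone and 0.10 and 0 CPM in control ectoderm.

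Endoderm genes fell the furthest short after the Mix and Bix genes. Of 28 tested members 24 were below, 3 above and 1 within, with a median of 6.74%. sox17a.S, an HMG-box factor of endoderm, had 0.49 and 0.28 CPM in Flag-Pinhead ectoderm, 46.8 and 47.1 CPM in control marginal zone and 0.61 and 0.29 CPM in control ectoderm. gata6.L, a zinc finger factor of endoderm and heart, had 0.49 and 0.99 CPM in Flag-Pinhead ectoderm, 44.1 and 46.2 CPM in control marginal zone and 0.66 and 0.06 CPM in control ectoderm. Flag-Pinhead ectoderm was not called apart from control ectoderm in either gene (edgeR adjusted p = 0.806 and 0.241). Both copies of sox17a together had 33 and 41 counts in Flag-Pinhead ectoderm, 21.2% and 9.76% of them from sox17a.S. In control ectoderm they had 15 and 12 counts, 80% and 41.7% of them from sox17a.S. Of the whole endoderm list 9 members were called above control ectoderm and none below, beside 15.8% and 12.3% of all genes. The 3 members above were both copies of cdx2, which the posterior list also holds, and sox7.S, with 18.2 and 15.2 CPM in Flag-Pinhead ectoderm, 3.17 and 6.29 CPM in control marginal zone and 14.1 and 12.8 CPM in control ectoderm.

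Blood and vascular genes were the list with the highest median, 1.57 over 11 tested members, of which 7 were above, 3 below and 1 undecided. aplnr.L, the receptor of Apelin and Elabela and a gene of early mesoderm and vessels, had 162 and 199 CPM in Flag-Pinhead ectoderm, 59.4 and 61.9 CPM in control marginal zone and 19.1 and 22.5 CPM in control ectoderm (1.57, SE 0.08, edgeR adjusted p = 1.86e-13). runx1.L, a factor of blood formation, had 7.12 and 5.53 CPM in Flag-Pinhead ectoderm, 0.39 and 0.26 CPM in control marginal zone and 0.81 and 0.85 CPM in control ectoderm. lmo2.L, a LIM-domain factor of blood formation, had 4.19 and 4.96 CPM in Flag-Pinhead ectoderm, 0.15 and 0.13 CPM in control marginal zone and 6.41 and 6.27 CPM in control ectoderm. Both Flag-Pinhead libraries lay below both of control ectoderm, a difference of -0.47 that was not called (edgeR adjusted p = 0.103). Against control ectoderm 3 of the 11 were called above and 1 below, beside 15.8% above and 12.3% below over all genes.

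**Figure D4:**
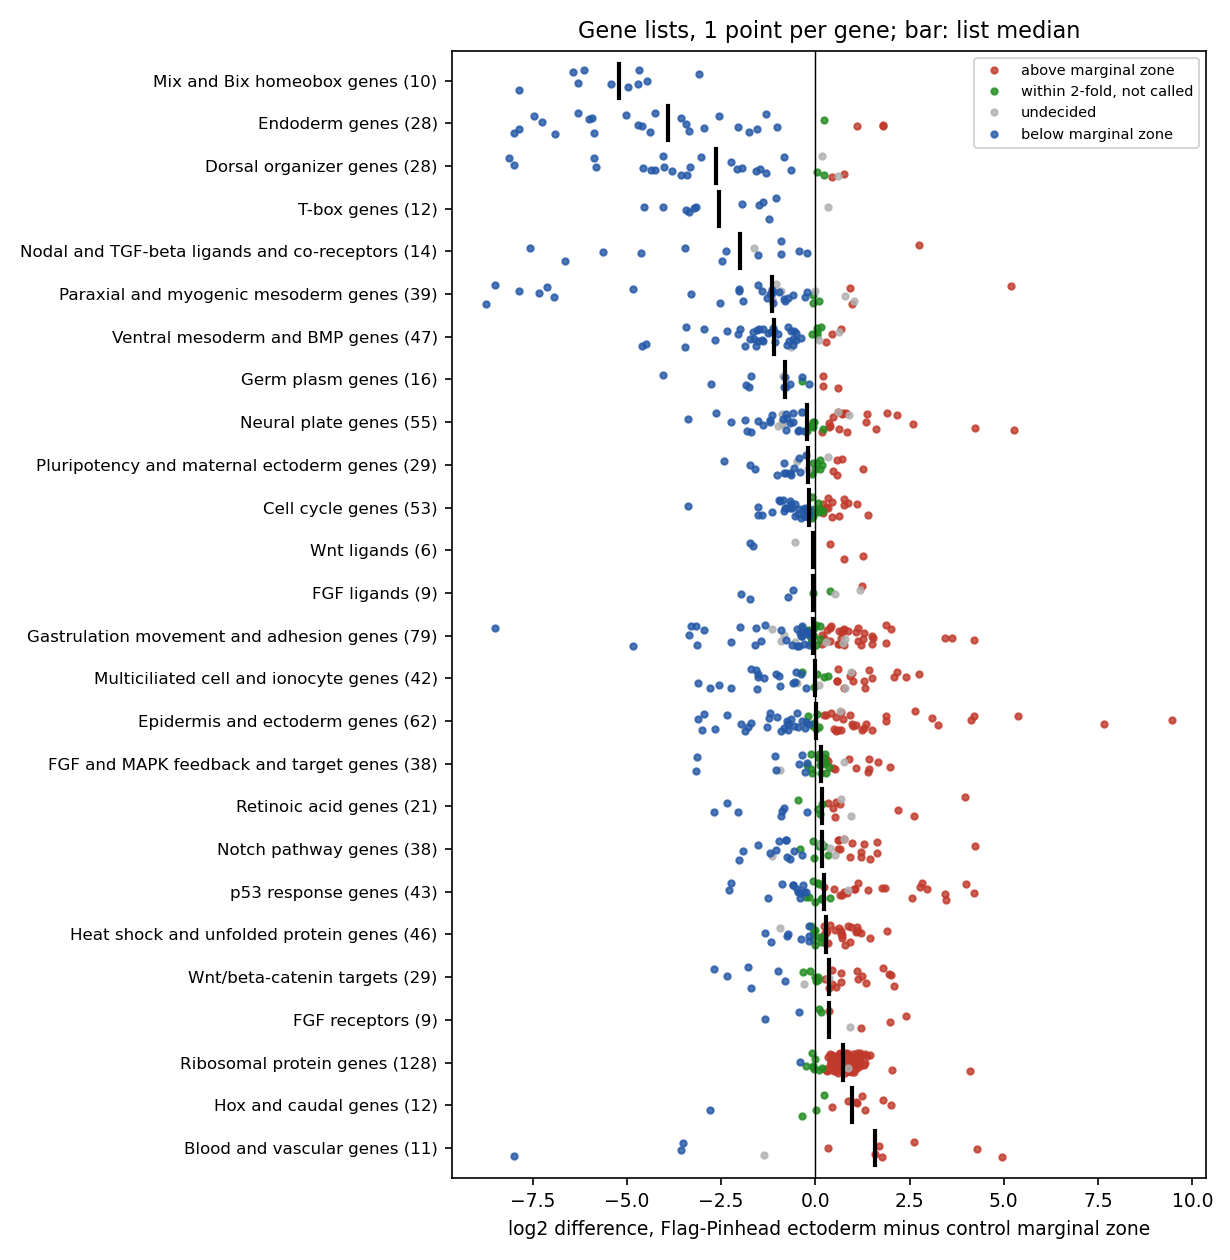
Log2 difference of Flag-Pinhead ectoderm minus control marginal zone (horizontal) for each tested gene (points, coloured by outcome) of 26 gene lists (vertical, number of genes in brackets), with a bar at each list's median. Medians run from -5.20 for the Mix and Bix genes to 1.57 for the blood and vascular genes.

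Among the marginal zone genes that exceeded their level, foxd3.L, a forkhead factor of the organizer and later of neural crest, had one of the largest differences. It had 58.8 and 42.8 CPM in Flag-Pinhead ectoderm, 9.35 and 9.34 CPM in control marginal zone and 1.82 and 1.60 CPM in control ectoderm (2.44, SE 0.14, edgeR adjusted p = 8.26e-13). foxd4l1.1.L, a forkhead factor of immature neural ectoderm, had 74.3 and 61.4 CPM in Flag-Pinhead ectoderm, 11.8 and 18.3 CPM in control marginal zone and 1.06 and 2.51 CPM in control ectoderm. zeb2.S, a zinc finger repressor that interacts with Smads, had 49.7 and 41.0 CPM in Flag-Pinhead ectoderm, 18.3 and 16.9 CPM in control marginal zone and 3.54 and 4.16 CPM in control ectoderm. In all 3 the Flag-Pinhead libraries lay above all 4 control libraries. Of the 55 tested neural plate genes 19 were above, 22 below, 7 within and 7 undecided, with a median difference of -0.21. That is 34.5% above and 40.0% below, beside 32.0% and 29.2% of all genes. The list summed to 2723 and 2603 CPM in Flag-Pinhead ectoderm, 2733 and 2846 CPM in control marginal zone and 1782 and 1853 CPM in control ectoderm. sox2.L, the HMG-box factor of neural progenitors, had 134 and 101 CPM in Flag-Pinhead ectoderm, 36.0 and 41.1 CPM in control marginal zone and 44.2 and 52.1 CPM in control ectoderm. The shorter set of neural markers, unlike the whole list, summed higher in Flag-Pinhead ectoderm, with 7 of its 9 tested genes above and 0 below. It held 1510 and 1411 CPM in Flag-Pinhead ectoderm, 1187 and 1240 CPM in control marginal zone and 756 and 778 CPM in control ectoderm.

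At the far low end were genes with no or almost no count in Flag-Pinhead ectoderm. In 67 of the 799 marginal zone genes neither Flag-Pinhead library had a count. osr1, a zinc finger factor of intermediate and lateral mesoderm, had no count in Flag-Pinhead ectoderm, 20.6 and 22.8 CPM in control marginal zone and 0.05 and 0 CPM in control ectoderm. It was at least 206-fold lower in Flag-Pinhead ectoderm than in control marginal zone, counting 3 counts over the group as the floor. hhex.L, a homeobox gene of anterior endoderm, had 1 count against 314, a ratio of control marginal zone over Flag-Pinhead ectoderm of 315.0 (exact 95% counting interval 56.1 to 12500). Both copies of hhex together had 11 and 6 counts in Flag-Pinhead ectoderm and 23 and 10 in control ectoderm. hhex.S stood at 8.41% of its marginal zone level, so hhex RNA was not absent. slc5a8.L, a solute carrier, had 0 and 0.07 CPM in Flag-Pinhead ectoderm against 36.1 and 36.6 CPM in control marginal zone. Such intervals and floors cover counting error only, since PCR copies are not independent molecules.

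Most genes chosen for a high level in control ectoderm were still above the marginal zone level. Ectoderm genes are the 736 genes (3.49% of those tested) at least 4-fold higher in control ectoderm than in control marginal zone. Here too tissue, stage label and arm of the study cannot be told apart. Of them 704 (95.7%) were still above the marginal zone level in Flag-Pinhead ectoderm, 1 was below, none came within 2-fold and 31 were undecided, by edgeR at an adjusted p under 0.05. Their median difference was 3.47 from control marginal zone and 0.08 from control ectoderm. With genes chosen on a single marginal zone library and compared with the other, their median difference from control marginal zone was 3.18 and 3.35. Against control ectoderm, 163 of the 736 were higher in Flag-Pinhead ectoderm and 64 were lower, beside 15.8% and 12.3% of all genes. These genes too were chosen on the control libraries they are compared with, so the counts are a description.

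Genes without a count in control marginal zone lead the upper end. In 96 of the ectoderm genes neither control marginal zone library had a count. ephx4.S, an epoxide hydrolase gene, had 35.9 and 32.2 CPM in Flag-Pinhead ectoderm, no count in control marginal zone and 34.7 and 31.9 CPM in control ectoderm. It was at least 322-fold higher in Flag-Pinhead ectoderm than in control marginal zone, and its values overlapped those of control ectoderm. post3.S had 34.8 and 29.8 CPM in Flag-Pinhead ectoderm, no count in control marginal zone and 6.51 and 13.1 CPM in control ectoderm, and was at least 305-fold higher than in control marginal zone. Tissue, stage label and arm of the study cannot be told apart as the source of such gaps. The list of epidermis and ectoderm genes, put together by role, gave 28 of 62 above the marginal zone level, 26 below, 6 within and 2 undecided. Against control ectoderm 11 of the 62 were called above and 32 below, and the list summed to 8538 and 7807 CPM in Flag-Pinhead ectoderm and to 10710 and 10970 CPM in control ectoderm. Of the 14 genes of the ectoderm marker list 2 were called above control ectoderm and 11 below. tfap2a.L, an AP-2 factor of ectoderm, had 209 and 208 CPM in Flag-Pinhead ectoderm, 370 and 372 CPM in control marginal zone and 539 and 528 CPM in control ectoderm. It was lowest in Flag-Pinhead ectoderm. grhl3.L, a Grainyhead factor of epidermis, had 252 and 238 CPM in Flag-Pinhead ectoderm, 212 and 205 CPM in control marginal zone and 293 and 298 CPM in control ectoderm.

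Some genes lay on neither side of the difference between the controls. After the values were seen, genes at least 4-fold above both controls were counted, with both adjusted p under 0.05, and there were 489 (2.32%); 22 (0.104%) were as far below both. The genes named here were picked after their values were seen. col17a1.L, a hemidesmosome collagen, had 127 and 110 CPM in Flag-Pinhead ectoderm, 0.46 and 1.17 CPM in control marginal zone and 1.56 and 1.25 CPM in control ectoderm. mmp14.L, a membrane-bound matrix metalloproteinase, had 84.8 and 69.8 CPM in Flag-Pinhead ectoderm, 7.03 and 5.64 CPM in control marginal zone and 5.96 and 6.44 CPM in control ectoderm. Both had their Flag-Pinhead libraries far above all control libraries. The same held for c5.2.L and c9.L, whose products are complement proteins. c5.2.L had 26.1 and 29.1 CPM in Flag-Pinhead ectoderm, 0.23 and 0.32 CPM in control marginal zone and 0.30 and 0.34 CPM in control ectoderm, and c9.L had 430 and 374 CPM in Flag-Pinhead ectoderm, 1.24 and 3.83 CPM in control marginal zone and 40.1 and 38.5 CPM in control ectoderm. Below both stood ccne2.S, a cyclin E gene, with 30.8 and 43.6 CPM in Flag-Pinhead ectoderm, 389 and 381 CPM in control marginal zone and 310 and 325 CPM in control ectoderm. foxi4.2.S, a forkhead factor of epidermal ectoderm, was below both too, with 29.0 and 34.0 CPM in Flag-Pinhead ectoderm, 258 and 253 CPM in control marginal zone and 202 and 194 CPM in control ectoderm.

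Genes of stress responses and of growth moved beside these results. Of 43 tested p53 response genes 20 were above (46.5%), 13 below (30.2%), 9 within (20.9%) and 1 undecided. Over all genes 32.0% were above, 29.2% below and 28.2% within 2-fold. ccng1.S, a cyclin G gene and p53 target, had 157 and 160 CPM in Flag-Pinhead ectoderm, 8.27 and 11.5 CPM in control marginal zone and 26.7 and 31.1 CPM in control ectoderm. mdm2.L, whose product degrades p53, had 151 and 167 CPM in Flag-Pinhead ectoderm, 25.3 and 28.5 CPM in control marginal zone and 40.0 and 41.8 CPM in control ectoderm. Both were highest in Flag-Pinhead ectoderm. Of 46 heat shock and unfolded protein genes 27 were above, 8 below, 10 within and 1 undecided. hspa5.L, the chaperone of the endoplasmic reticulum, had 572 and 546 CPM in Flag-Pinhead ectoderm, 148 and 153 CPM in control marginal zone and 101 and 106 CPM in control ectoderm. The controls received no RNA, so injection as such and Pinhead cannot be told apart in these values. Ribosomal protein genes were above in 118 of 128, with a median of 0.74, and summed to 8979 and 8334 CPM in Flag-Pinhead ectoderm, 5042 and 5355 CPM in control marginal zone and 7255 and 7329 CPM in control ectoderm. Cell cycle genes were below in 28 of 53, above in 14 and within 2-fold in 11. Germ plasm genes, listed as genes of vegetal cells, were below in 11 of 16, above in 3, within in 1 and undecided in 1. Against control ectoderm, 11 of the 16 were called higher in control marginal zone and 2 lower, beside 5769 and 5782 of the 21079 genes tested. The list's sums, in which abundant members weigh most, differed little between the groups. They were 484 and 478 CPM in Flag-Pinhead ectoderm, 528 and 541 CPM in control marginal zone and 493 and 488 CPM in control ectoderm. The member with the lowest share of its marginal zone level was nanos1.L. It had 0.28 and 0.28 CPM in Flag-Pinhead ectoderm, 4.41 and 5.06 CPM in control marginal zone and 0.35 and 0.17 CPM in control ectoderm.

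The remaining lists held genes with every outcome. Of 79 gastrulation movement and adhesion genes 31 were above, 29 below, 12 within and 7 undecided. prickle1.L, a planar cell polarity gene of that list, had 266 and 218 CPM in Flag-Pinhead ectoderm, 102 and 107 CPM in control marginal zone and 49.0 and 50.6 CPM in control ectoderm, while pdgfra.L, a growth factor receptor of migrating mesoderm, reached 12.9% of the marginal zone level. Notch pathway genes were above in 14, below in 12, within in 7 and undecided in 5 of 38. Genes of multiciliated cells and ionocytes were above in 15, below in 18, within in 5 and undecided in 4 of 42. Retinoic acid genes were above in 8, below in 7, within in 4 and undecided in 2 of 21. Pluripotency and maternal ectoderm genes were above in 5, below in 13, within in 8 and undecided in 3 of 29. All these shares stand beside 32.0% above, 29.2% below and 28.2% within 2-fold over all genes.

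The L and S copies of a gene mostly had the same outcome. In 64 pairs both copies were marginal zone genes, and in 52 of these pairs both had the same outcome, both below in 45 and both above in 5. Of all 799 marginal zone genes 81.0% were below and 6.26% above. Many pairs would thus both be below even if copies were unrelated, and the count of such pairs does not measure their agreement. The percentages of the marginal zone level were over 4-fold apart in 16 pairs, pnhd among them. t.S had 10.3 and 7.65 CPM in Flag-Pinhead ectoderm, 103 and 81.5 CPM in control marginal zone and 0 and 0.06 CPM in control ectoderm. It reached 9.71% of the marginal zone level, against 42.4% for t.L. The S copy thus gave 6.67% (exact 95% binomial interval 5.66 to 7.79) and 6.2% (5.11 to 7.43) of t counts in Flag-Pinhead ectoderm and 24.2% (23.0 to 25.3) and 21.9% (20.9 to 23.1) in control marginal zone. Opposite calls were made in 3 pairs, tril, nrp2 and pnhd. tril.S had 31.3 and 36.9 CPM in Flag-Pinhead ectoderm and 9.51 and 7.98 CPM in control marginal zone, whereas tril.L had 4.19 and 2.69 CPM in Flag-Pinhead ectoderm and 6.26 and 7.78 CPM in control marginal zone. Copies can share reads, so values of single copies are uncertain where their sequences are near-identical.

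**Figure D5:**
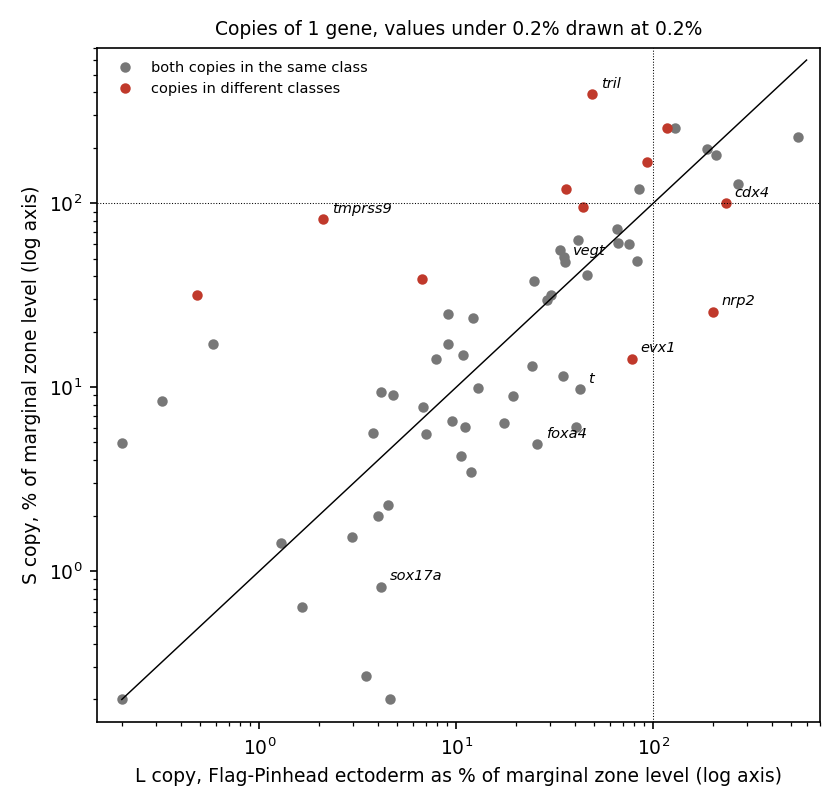
Level in Flag-Pinhead ectoderm as a percentage of that in control marginal zone, S copy (vertical) against L copy (horizontal), both on log axes, for 63 pairs of copies that are both marginal zone genes (pnhd left out). Dotted lines mark the marginal zone level, the solid line equal percentages, and red points the 11 pairs whose copies differ in outcome; t lies under the line, with 9.71% for its S copy and 42.4% for its L copy.

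The Flag-Pinhead libraries held different amounts of pnhd.L, 34520 CPM in library 1 and 64610 CPM in library 2. Over the 360 marginal zone genes compared by library, the median log2 difference from the control marginal zone mean was -2.27 in library 1 and -2.23 in library 2. Values of single genes differed between them, and those given were picked after they were seen. Library 1, with less pnhd.L, had the higher values of wnt11b.L (416 against 282 CPM in library 2), cdx2.S (86.1 against 52.9 CPM) and t.L (144 against 116 CPM). Library 2 had the higher values of eomes.S (15.2 against 9.91 CPM in library 1), vegt.L (228 against 212 CPM) and chrd.L (12.1 against 8.72 CPM). With 1 library at each amount, no test of these differences was made.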

How the data were processed

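Messenger RNA of ectoderm and marginal zone explants was selected on oligo(dT), fragmented and sequenced on a HiSeq2000, per the labels' protocols. The authors used CASAVA 1.8, HISAT2, SAMtools and HTSeq, per the submitters' processing notes. Genome build and options of counting: not given in the sources used here. Raw counts of 35649 genes were deposited in 16 columns, 2 for each sample, which were added. Of these genes 4259 had no count. Control marginal zone replicate 1 was given 2 columns with mistyped names, being the only sample without columns of its own. LOC identifiers were matched to a RefSeq gene table: of 24441 it held 21106, and 11221 took their symbol from it. Strand is not stated, so a gene and an overlapping antisense gene can share reads.

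Genes were filtered with filterByExpr (minimum 10 counts) and fitted with edgeR 4.0.16 in R 4.3.3 over 6 libraries in 3 groups, with 3 residual degrees of freedom. TMM factors and library sizes leave out both pnhd genes. Two-sided quasi-likelihood F tests were adjusted by Benjamini-Hochberg over 21079 genes at 0.05. Standard errors are the log2 difference divided by the square root of F, or from the information matrix where the difference is under 0.05, and intervals are 95% intervals from the t distribution. DESeq2 1.42.0 was an alternative, beside other scalings, filters, fold limits and sets of libraries.

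Members and gene lists were chosen with earlier results of these data known. The genes with the largest differences, the marginal zone and ectoderm genes that exceeded or came within 2-fold, and up to 4 called members of each list were named by rule. The text gives a part of them, and other list members for their role. Counts of 20276 genes were simulated for this comparison, with 67 genes changed 1.5-fold, 67 changed 2-fold and 66 changed 4-fold. All changed genes had an average log2 CPM of at least 1, and all others had equal means. The fit called 70.1% of the 1.5-fold changes, 91% of the 2-fold and 98.5% of the 4-fold ones, and 5.46% of its calls were false. The class within 2-fold took in 85.7% of unchanged genes, 17.9% of those changed 1.5-fold and none of those changed by more. Far more genes were called in the real data, and low genes were not among those changed, so these shares need not hold there.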

Additional observations from a re-analysis of the deposited data

How the results depend on the processing

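Of 3737 values of 208 genes under the alternatives, 3668 kept their direction and side of the threshold, 49 newly passed it, 20 no longer did and 0 reversed. Of the lost calls 14 were under glmTreat, a test beyond 1.5-fold, and the others were those of spry1.L and dusp6.L given above. Under glmTreat 5247 genes were called, 2906 higher and 2341 lower. With marginal zone and ectoderm genes chosen at 2-fold between the controls there were 1815 marginal zone genes (1417 short, 100 exceeding, 91 within 2-fold) and 1706 ectoderm genes (1559 still above). At 8-fold there were 485 (422 short, 22 exceeding, 16 within) and 393 (383 still above). Genes averaging at least 1 CPM gave 502 marginal zone genes (417 short) and 490 ectoderm genes. DESeq2 called 10270 genes. It gave 805 marginal zone genes (553 short, 28 exceeding, 27 within) and 714 ectoderm genes (665 still above). Leaving out each library in turn gave 11110 to 12776 called genes (5835 to 6775 higher, 5275 to 6058 lower), 792 to 921 marginal zone genes (602 to 709 short, 33 to 56 exceeding, 23 to 33 within) and 749 to 788 ectoderm genes (691 to 707 still above). Where this leaves a group with 1 library, its spread was taken from the other groups.

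Samples with the same number did not deviate together (correlation -0.02 between Flag-Pinhead ectoderm and control marginal zone, over 17452 genes), so the numbers gave no sign of pairing. With 2 libraries per group this cannot exclude shared clutches or batches. With a replicate block 12674 genes were called, with 641 short, 49 exceeding and 28 within among 797 marginal zone genes. Scaling by library totals alone moved the median of all genes to -0.08 and the share of calls that were higher to 44.7%, against 52.3%. The fit of only the 4 libraries compared and glmTreat gave no outcome classes, since the one has no control ectoderm and the other tests against a fold. Depth limits the low genes: of the 71 undecided marginal zone genes 5 had an average log2 CPM of at least 1.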
